A study of Homo sapiens with 95 samples.

Results

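DNA adduct repair and translesion genes were profiled as a group of 36 genes in AALE, an immortal line derived from the epithelium of the human bronchus, with carcinogens of tobacco smoke among the treatments. The genes were chosen by symbol from the pathways that act on bulky and alkyl adducts, and each had to reach a mean of at least 1 counted read over the 95 samples. All 36 did, out of 27978 genes listed, of which 22764 had at least 1 read.

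Bulky adducts, such as those left on guanine by the activated forms of benzo(a)pyrene, are removed by nucleotide excision repair. The lesion is found either by the XPC complex and the DDB1-DDB2 complex anywhere in the genome, or by the CSB protein (gene ERCC6) and its partners where RNA polymerase has stalled. TFIIH then opens the helix, XPA and the RPA trimer check the lesion, the XPF-ERCC1 and XPG nucleases cut on either side of it, and a ligase seals the refilled gap. Adducts that remain at replication can be crossed by translesion polymerases, which RAD18 helps to recruit, and alkyl groups on the O6 position of guanine are taken off directly by MGMT.

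The study used sparse full length (SFL) sequencing, a pooled RNA-seq method with dual barcodes, to profile 8 engineered AALE lines under 4 treatments. FAT1 and CDKN2A (which encodes the p16 and p14ARF proteins) were knocked out with CRISPR, and the control of both lines, named GFP, had received the Cas9-EGFP plasmid with no guide RNA. NRF2 (NFE2L2), FGFR1, NRG1 and PIK3CA were overexpressed, and their control, named HcRed, carried a vector with that reporter alone. Each line was exposed at confluence to cigarette smoke condensate (CSC, at 24 μg/ml), to benzo(a)pyrene (BaP, at 173 μM), to NNK, a nitrosamine of tobacco (at 490 μM), or to the solvent DMSO. The duration of exposure is not given in the sources used here. Every combination had 3 samples except CSC-treated FGFR1, which had 2. Each perturbation is 1 engineered line set against 1 control line, so a line's other history cannot be told apart from its perturbation, and p-values measure only the spread between samples of these lines.

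The counted reads per sample ranged from 287446 to 2116383, so that 3 counts stood at 1.42 to 10.4 CPM, the count scaled to the size of the library. The targeted gene separated each line from its control without overlap: in CPM, FAT1 was at 67.4 to 128 in its knockout and 258 to 447 in GFP, and CDKN2A was at 34.7 to 67.1 against 78.3 to 148. The closest library by log2 CPM was of the same line for all but 1 of the 95 libraries, and no libraries held identical counts. Epithelial markers were abundant, with a mean of 3047 counts for the basal keratin KRT5 and 466 for CDH1, while 5 of the 6 blood and endothelial markers had mean counts below 1, the exception being CD14 at 2.62, and PTPRC and CD3E were at 0.0737 and 0. Of the 6 fibroblast markers 4 were below 1, with COL1A1 at 24.2 and DCN at 1.29.

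The promoters of 3 members are shown because XPC and POLI moved in opposite directions in the knockout lines and LIG1 in opposite directions with the chemicals before correction for GC content (all 3 differences were negative after it), and because they are the members whose promoter held TTTCCCGC, a sequence bound by E2F factors. RAD23B and RPA1 also moved in opposite directions in the knockout lines, and their promoters held no TTTCCCGC. Each line gives the 250 bases before the first start listed for the gene in RefSeq on GRCh38.p14. The bases are read 5′ to 3′ on the gene's strand, with TTTCCCGC or its reverse complement in capitals. They lie at chr3:14178602-14178851 on the minus strand (XPC), chr18:54269324-54269573 on the plus strand (POLI) and chr19:48170345-48170594 on the minus strand (LIG1).
XPC: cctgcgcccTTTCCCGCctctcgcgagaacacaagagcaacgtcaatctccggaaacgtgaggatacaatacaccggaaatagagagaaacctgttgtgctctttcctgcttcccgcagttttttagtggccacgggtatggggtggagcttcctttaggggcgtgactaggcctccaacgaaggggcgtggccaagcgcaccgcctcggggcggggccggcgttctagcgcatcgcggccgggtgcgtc
POLI: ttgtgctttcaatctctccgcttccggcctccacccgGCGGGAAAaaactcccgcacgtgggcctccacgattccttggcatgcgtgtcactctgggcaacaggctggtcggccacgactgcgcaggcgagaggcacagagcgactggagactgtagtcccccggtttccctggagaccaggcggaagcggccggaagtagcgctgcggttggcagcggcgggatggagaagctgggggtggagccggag
LIG1: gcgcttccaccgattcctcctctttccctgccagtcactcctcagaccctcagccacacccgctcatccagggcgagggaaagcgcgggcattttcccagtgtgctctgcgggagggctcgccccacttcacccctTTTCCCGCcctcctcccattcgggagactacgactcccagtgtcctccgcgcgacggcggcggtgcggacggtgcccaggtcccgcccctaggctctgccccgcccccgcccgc
In the order shown, the match ended 233, 205 and 106 bases before the start listed, and it overlapped none of the other motifs searched. The POLI window ends in bases that read as coding sequence (from atggagaag). That window thus reaches into the gene, and 205 is the distance to a start inside it. Promoters of 34 members were in the table, RPA2 and RPA3 being the exceptions, and 3 of the 34 (8.82%) held TTTCCCGC, against 1.42% of 27305 promoters of the same length. TTTGGCGC, another E2F sequence, was in none of the 34 and in 0.553% of all. GCGTG, the core of the element bound by the aryl hydrocarbon receptor (AhR), was in 19 of the 34 (55.9%) and in 31.9% of all, and TGANNNNGC, the core of the element bound by NRF2, was in 12 (35.3%) and in 35.4% of all. Both strands were searched each time, and a match describes the sequence alone. The 27305 promoters were not matched to the members for GC content, which was 61.2% to 69.6% in the 3 shown. The shares therefore do not separate these motifs from base composition.

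The members covered a wide range of levels. Per kilobase of transcript, the median level was highest for RAD23B, which stabilizes XPC, at 95.3 CPM per kb, followed by the damage sensor DDB1 at 75.7 and the RPA subunits RPA1 and RPA2 at 39.1 and 38.5. XPC stood at 17.1, DDB2 at 18.9, and MGMT at 3.04 CPM per kb, and MGMT was the lowest but 4. Below it came ERCC8 at 2.21, the TFIIH genes GTF2H2 and GTF2H4 at 2.16 and 0.559, and the nuclease gene ERCC5 at 0.402 CPM per kb. GTF2H2, GTF2H4 and ERCC5 were at 0 counts in some libraries, and their values are uncertain because near-identical copies (GTF2H2) or a readthrough gene (BIVM-ERCC5) can take reads in counting. The other 33 members had a mean of at least 10 counts. XPC, DDB1, ERCC2, GTF2H3, ERCC1, LIG3, POLH, REV1 and RAD18, among others, overlap a gene on the other strand, and the strand setting of the counting is not given in the sources used here.

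Over the 33 members, the median fold between the highest and lowest of the 8 line medians was 1.58, and that between the highest and lowest of the 4 treatment medians was 1.25. The line medians are more numerous and each rests on fewer libraries, which alone widens their span, so the values give no order. The largest fold between lines was that of POLI, which encodes a translesion polymerase, with medians from 24.0 CPM in the CDKN2A knockout to 60.0 CPM in the FAT1 knockout. The CDKN2A knockout held the lowest median for 11 of the 33 and the FAT1 knockout for 7, whereas GFP and FAT1 each held the highest for 9.

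**Figure D1:**
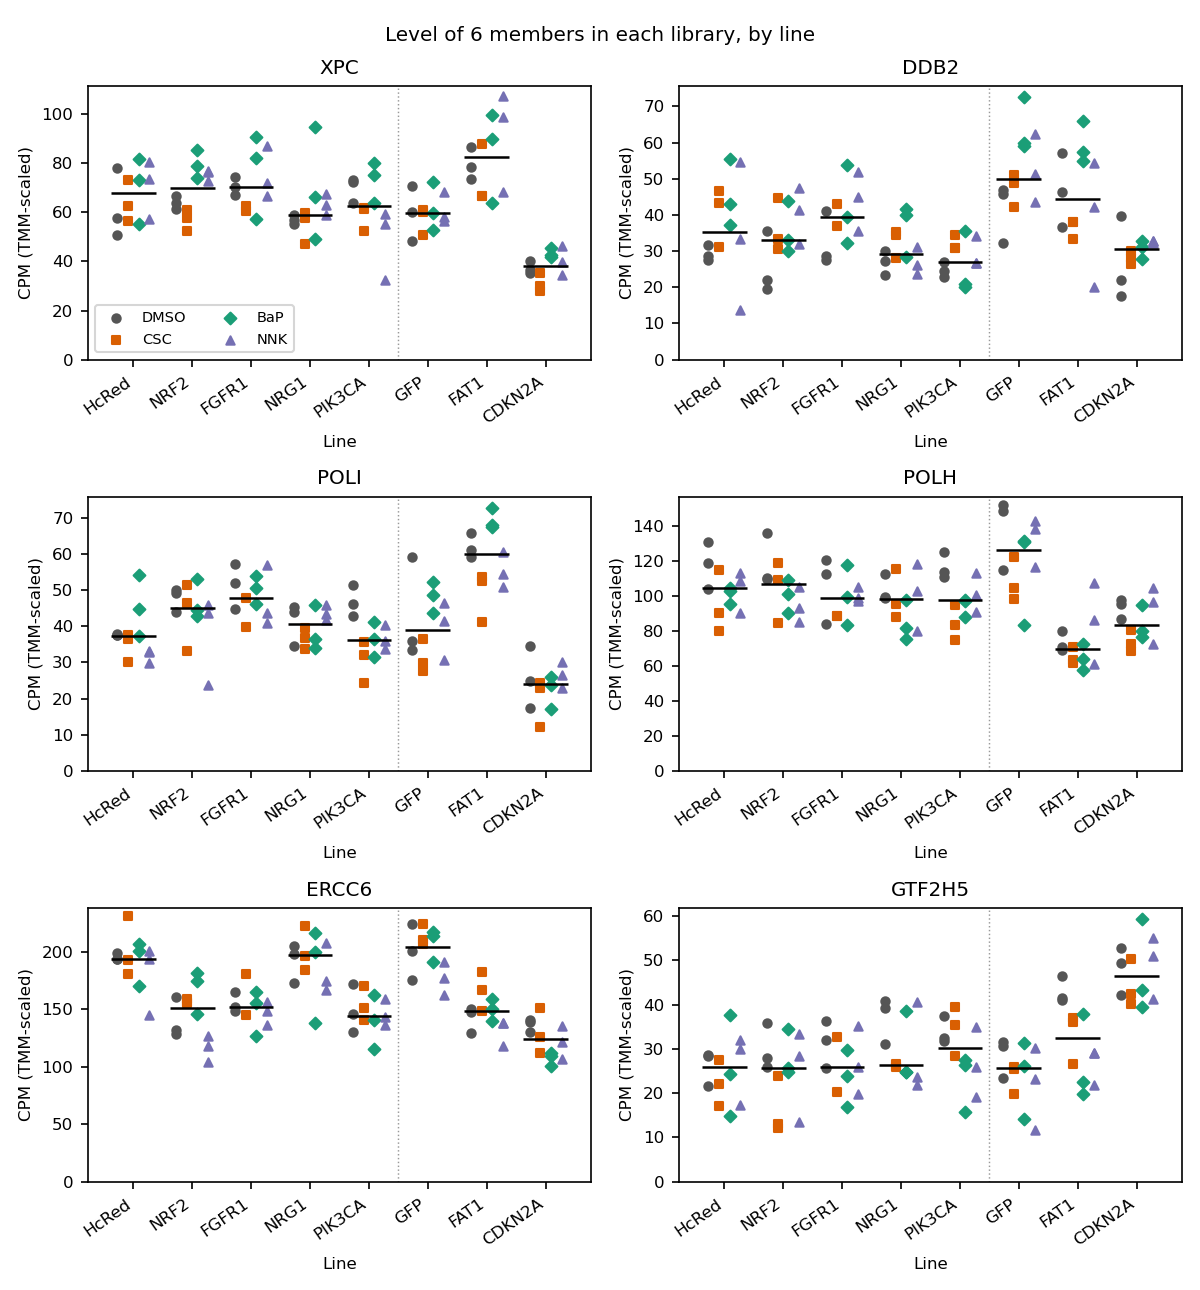
Level of 6 members in each of the 95 libraries, in CPM scaled by TMM normalization (y axis, from 0), by line (x axis), with marker shape and colour for the treatment and a black bar for the median of the line. The dotted line parts the overexpression lines with HcRed from the knockout lines with GFP. XPC lies at 28.1 to 46.5 CPM in the CDKN2A knockout, below every GFP and FAT1 library, and GTF2H5 at 39.4 to 59.4 CPM, above every GFP library.

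Against its control GFP, the CDKN2A knockout had lower levels, as counted, of most members that recognize damage and bypass it. Lines were compared over all 4 treatments with limma on voom-transformed counts, with treatment as a term and 12 samples per line, and a gene was called at a Benjamini-Hochberg adjusted p below 0.05 over all genes tested. In “CDKN2A vs. GFP”, 21 of the 36 members were called, 15 lower and 6 higher, where 57.6% of 14383 genes were called, 28.3% lower and 29.4% higher. The median log2 difference was -0.14 over the members and 0.00 over all genes. By role, 4 of 5 damage recognition genes fell and none rose, 4 of 6 translesion genes fell and none rose, and 4 of 7 verification and incision genes fell and 1 rose. Among the 7 TFIIH core genes 2 rose and none fell, and none of the 3 genes of the CDK-activating kinase was called. GFP itself was called above HcRed for 4 of the 5 damage recognition and 3 of the 6 translesion genes, with none lower. It was also above HcRed for 4 of the 7 verification and incision genes, with 1 lower. The CDKN2A knockout was not tested against HcRed, so these falls are relative to GFP alone.

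XPC (chr3:14186647-14220121 on GRCh37) had a lowest, median and highest level of 28.1, 38.1 and 46.5 CPM in the CDKN2A knockout and 48.3, 59.9 and 72.3 CPM in GFP. The ranges did not overlap, and every CDKN2A library was lower. The log2 difference was -0.67 ± 0.10 (SE, n = 12 per line), with a limma adjusted p of 2.47e-08. DDB2 (chr11:47236016-47260768), the partner of DDB1 that binds the lesion, was at 17.5, 30.6 and 39.8 CPM in the knockout and 32.2, 50.0 and 72.7 CPM in GFP. The upper part of the knockout range reached the lower part of the GFP range, and the level was lower in each of the 4 treatments. The log2 difference of DDB2 was -0.79 ± 0.11 (limma adjusted p = 1.16e-08), the largest fall among the members in this comparison.

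In the translesion group, POLI (chr18:51795887-51847636) was at 12.0, 24.0 and 34.6 CPM in the CDKN2A knockout and 27.5, 39.1 and 59.3 CPM in GFP. RAD18 (chr3:8817088-9005457), the ubiquitin ligase that marks PCNA at stalled forks, was at 28.1, 39.2 and 54.2 CPM against 49.4, 59.9 and 80.6 CPM. For both genes the ranges overlapped at their edges and the level was lower in all 4 treatments. The log2 differences were -0.73 ± 0.13 for POLI (limma adjusted p = 2.66e-06) and -0.68 ± 0.10 for RAD18 (8.93e-09). POLH, which encodes the polymerase lost in the variant form of xeroderma pigmentosum, fell by 0.57 on the log2 scale (SE 0.08, limma adjusted p = 2.33e-09).

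Other members differed in either direction by similar amounts. ERCC6 (chr10:50662214-50747584) was at 100 to 151 CPM in the CDKN2A knockout and at 163 to 225 CPM in GFP, with no overlap, a log2 difference of -0.67 ± 0.06 and a limma adjusted p of 5.60e-15. LIG1, the ligase that joins Okazaki fragments and repair patches in cycling cells, fell by 0.58 (SE 0.08, limma adjusted p = 1.58e-09). In the opposite direction, LIG3, the ligase paired with XRCC1, had a log2 difference of 0.74 ± 0.10 (limma adjusted p = 8.71e-10) and UVSSA, which stabilizes CSB, of 0.67 ± 0.14 (4.56e-05). GTF2H5 (chr6:158589382-158620376), the smallest subunit of TFIIH, was at 39.4, 46.3 and 59.4 CPM in the knockout and 11.6, 25.7 and 31.5 CPM in GFP. Every knockout library was higher, the log2 difference was 0.86 ± 0.12 (limma adjusted p = 1.12e-08), and this was the largest rise among the members in this comparison. MGMT did not pass the test, at 5.73 to 13.1 CPM in the knockout and 4.07 to 20.8 CPM in GFP.

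The other members called in this comparison moved less. XPA fell by 0.43 on the log2 scale, RPA1 by 0.42, RPA3 by 0.41, XRCC1 by 0.36, RAD23B by 0.33, RPA2 by 0.31, POLK by 0.23 and DDB1 by 0.14 (limma adjusted p from 3.25e-08 for RAD23B to 0.0145 for XRCC1). All 3 subunits of RPA were thus lower. ERCC2, a TFIIH helicase, rose by 0.46, ERCC4 by 0.38 and XAB2 by 0.25 (limma adjusted p = 0.00492, 0.00818 and 0.0158). When each sample was corrected for its own trend with GC content and transcript length, POLK (-0.05), XAB2 (0.01) and ERCC2 (0.30) no longer passed, while XPC was at -0.71, DDB2 at -0.90 and GTF2H5 at 0.99. The 15 members not called were MGMT, the 3 kinase genes, 5 of the TFIIH core genes, and CETN2, ERCC8, ERCC1, ERCC5, REV1 and REV3L.

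A list of 19 cycling genes moved with this comparison: 11 were lower and 3 higher in the CDKN2A knockout, and their summed level had a median of 4642 CPM (range 3973 to 5556) there and 6542 CPM (5911 to 7762) in GFP. The largest changes were those of TOP2A (-1.14) and RRM2 (0.83) on the log2 scale. Of 15 p53 response genes, 5 rose and 2 fell, with a median log2 difference of 0.00. The part of cell cycling in the lower levels of the members was not tested.

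POLH and LIG1 had the largest falls among the members in the FAT1 knockout. In “FAT1 vs. GFP”, 22 of the 36 members were called, 10 higher and 12 lower, where 48.9% of 14021 genes were called, 25% higher and 23.9% lower. The median log2 difference was -0.04 over the members and 0.03 over all genes. POLH (chr6:43543922-43588260) was at 57.5, 69.7 and 107 CPM in the FAT1 knockout and 83.4, 126 and 152 CPM in GFP, and was lower in all 4 treatments. Its log2 difference was -0.81 ± 0.08 (limma adjusted p = 4.81e-14). LIG1 (chr19:48618702-48673860) was at 47.7, 74.6 and 100 CPM against 92.7, 114 and 159 CPM, which gave -0.74 ± 0.08 (limma adjusted p = 6.18e-13). The ranges overlapped between 92.7 and 100 CPM.

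ERCC1, which forms the 5′ nuclease with the product of ERCC4, fell in the FAT1 knockout by 0.68 on the log2 scale (SE 0.11, limma adjusted p = 4.22e-07), whereas ERCC4 rose, by 0.51 ± 0.13 (0.000519). The ERCC4 median was 41.7 CPM in the FAT1 knockout, 32.2 CPM in GFP and 45.6 CPM in HcRed. REV1, the scaffold of the translesion polymerases, was at 54.2 to 75.0 CPM in the knockout and at 77.3 to 110 CPM in GFP. The 2 ranges of REV1 did not overlap, and the log2 difference was -0.55 ± 0.08 (limma adjusted p = 2.03e-08). CDK7, the kinase of TFIIH, had a log2 difference of 0.62 ± 0.10 (limma adjusted p = 6.11e-07) while MNAT1, its assembly factor, had one of -0.48 ± 0.12 (0.000447). XRCC1 fell by 0.49 (limma adjusted p = 0.00173) and the TFIIH subunits GTF2H3 and GTF2H5 rose by 0.50 and 0.46 (3.10e-07 and 0.00221). DDB2 did not pass the test in this line, at 20.04, 44.3 and 65.9 CPM, nor did MGMT, at 7.59, 14.1 and 24.98 CPM. Cycling genes were also lower here, with 10 of 19 down and 3 up and a summed median of 5235 CPM, and their part in these differences was not tested.

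Among the other members called in “FAT1 vs. GFP”, ERCC6 was at 118, 148 and 183 CPM, lower than GFP by 0.43 ± 0.06 on the log2 scale (limma adjusted p = 1.65e-09), with ranges that overlapped only between 163 and 183 CPM. CETN2, a partner of XPC, fell by 0.31, RPA2 by 0.29, ERCC3 by 0.22, and DDB1 and REV3L by 0.17 each. RPA1 rose by 0.33 (limma adjusted p = 1.27e-06), XAB2 by 0.41, GTF2H1 by 0.19 and RAD23B by 0.18 (0.000369). With the correction for GC content and length, REV3L (-0.04) and XAB2 (0.18) no longer passed.

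XPC and POLI rose in the FAT1 knockout and fell in the CDKN2A knockout against the same GFP libraries. XPC was at 64.0, 82.5 and 107 CPM in the FAT1 knockout, with a log2 difference from GFP of 0.45 ± 0.09 (limma adjusted p = 1.82e-05). POLI was at 41.3, 60.0 and 72.8 CPM there, 0.58 ± 0.10 above GFP (limma adjusted p = 1.05e-06). Since the comparisons share the GFP libraries, the knockout lines were also compared with each other, a test added after the data were seen. In “FAT1 vs. CDKN2A”, 25 of 36 members were called, 15 higher and 10 lower, where 60.4% of 14355 genes were called, 30.1% higher and 30.3% lower.

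The largest differences between the knockout lines were those of POLI, 1.30 ± 0.12 on the log2 scale (limma adjusted p = 5.85e-17), and XPC, 1.13 ± 0.10 (1.03e-17). RPA1, the large subunit of the protein that coats single-stranded DNA, was at 203 to 289 CPM in the FAT1 knockout and 114 to 169 CPM in the CDKN2A knockout, a log2 difference of 0.75 ± 0.06 (limma adjusted p = 1.95e-19). RAD23B differed by 0.52 ± 0.04 (limma adjusted p = 3.59e-19). For all 4 genes each FAT1 library was higher than each CDKN2A library. The share of all genes separated in this way was not computed, so the separation is no trait of the members. In the other direction, ERCC1 was lower in the FAT1 knockout by 0.83 ± 0.11 (limma adjusted p = 4.64e-10), UVSSA by 0.75 ± 0.14 (5.46e-06) and LIG3 by 0.62 ± 0.09 (3.51e-09). MGMT was 0.52 ± 0.19 higher in the FAT1 knockout (limma adjusted p = 0.0142), with overlapping ranges.

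**Figure D2:**
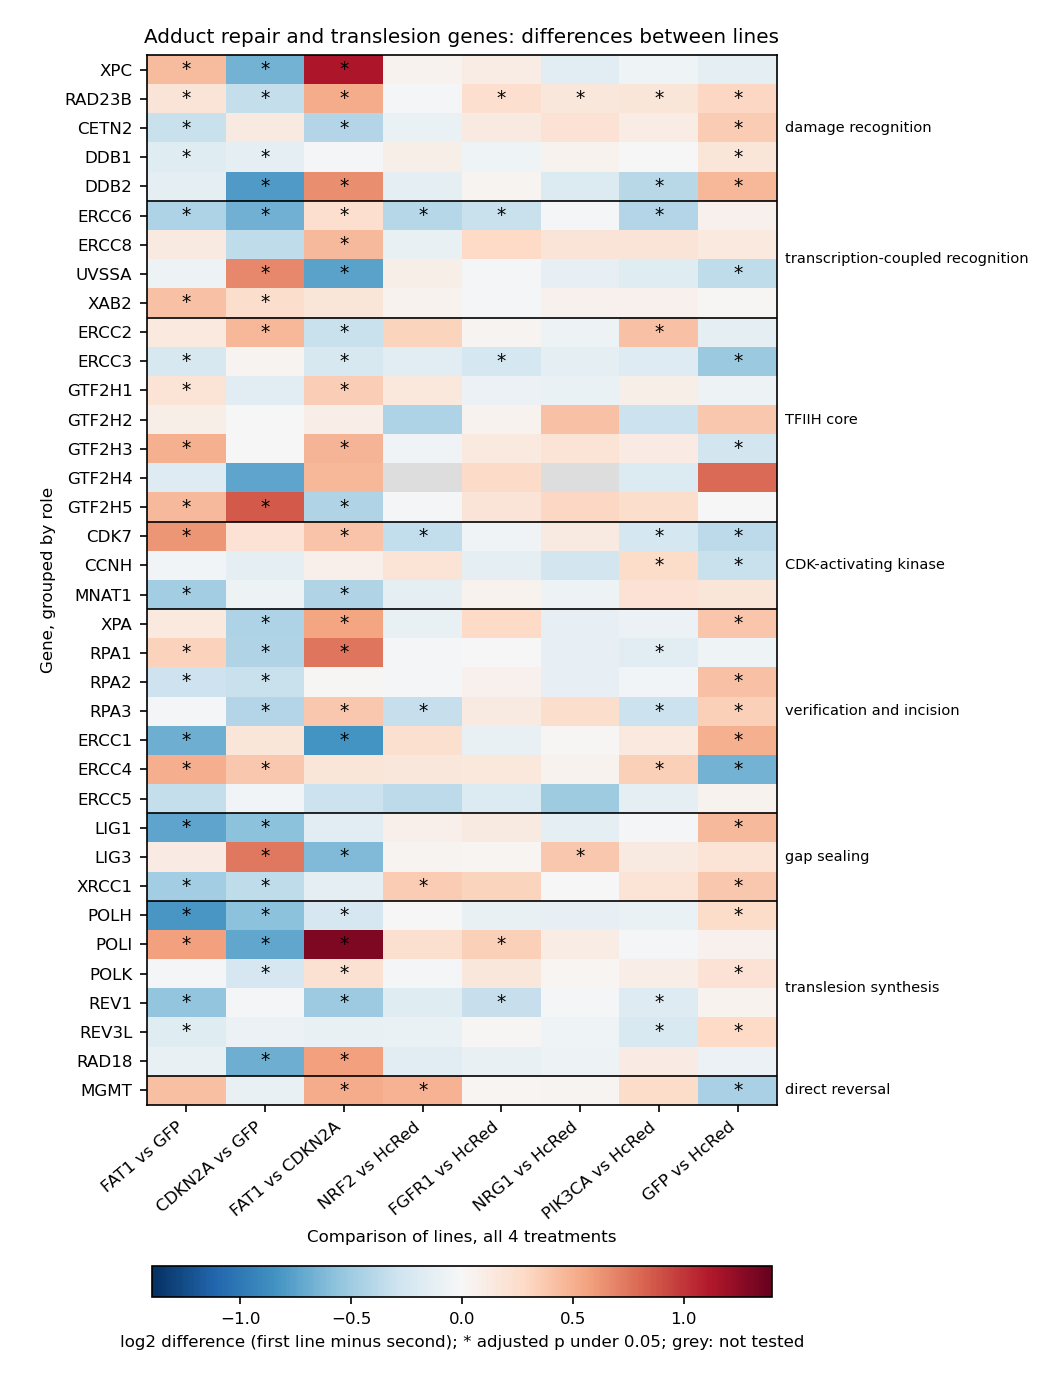
Log2 difference of each of the 36 members (y axis, grouped by role) in 8 comparisons of lines over all 4 treatments (x axis), red where the first line was higher and blue where it was lower. Stars mark a limma adjusted p below 0.05 and grey cells were not tested. The comparisons with the knockout lines and of the controls hold 20 to 25 stars each, those of the overexpression lines 2 to 11. Of all genes tested, 45% to 60.4% were called in the former and 10.8% to 27.8% in the latter.

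The share of members called between the overexpression lines and HcRed was near or below that of all genes. It was 14.3% for NRF2, 13.9% for FGFR1, 5.71% for NRG1 and 30.6% for PIK3CA. The number called was 5 of 35 tested for NRF2 (21.6% of all genes tested), 5 of 36 for FGFR1 (13.5%), 2 of 35 for NRG1 (10.8%) and 11 of 36 for PIK3CA (27.8%). ERCC6 was the member with the smallest adjusted p in NRF2 and PIK3CA. It had a lowest, median and highest level of 145, 194 and 232 CPM in HcRed, 104, 151 and 181 CPM in NRF2, 127, 152 and 180 CPM in FGFR1, and 115, 145 and 172 CPM in PIK3CA. Each of these 3 lines was lower in all 4 treatments with partly overlapping ranges, and the NRG1 line, at 138, 197 and 223 CPM, was not called. The log2 differences from HcRed were -0.40 ± 0.06 in NRF2 (limma adjusted p = 4.59e-07), -0.32 ± 0.06 in FGFR1 (6.01e-05) and -0.41 ± 0.06 in PIK3CA (5.05e-08). The 3 values share the HcRed libraries.

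MGMT, the alkyltransferase, had its highest median in the NRF2 line, at 15.5, 20.7 and 29.0 CPM, against 9.71, 14.7 and 25.8 CPM in HcRed. The ranges overlapped, the mean was higher in all 4 treatments, and the log2 difference was 0.48 ± 0.15 (limma adjusted p = 0.0160). It did not pass without the samples of replicate number 1 (0.46, limma adjusted p = 0.108) or 2 (0.44, 0.128). RAD23B was higher than in HcRed in FGFR1, NRG1 and PIK3CA by 0.23, 0.16 and 0.17 on the log2 scale (limma adjusted p = 2.20e-05, 0.0150 and 0.000827). POLI rose by 0.34 ± 0.10 in FGFR1 (limma adjusted p = 0.0163), where REV1 fell by 0.32 ± 0.08 (0.00178). In PIK3CA, DDB2 fell by 0.39 ± 0.12 (limma adjusted p = 0.0122) and stood at 20.05, 26.9 and 35.5 CPM, the lowest median of any line, while ERCC2 rose by 0.41 ± 0.13 (0.00795) and ERCC4 by 0.33 ± 0.09 (0.00283). In NRG1, LIG3 was the other member called, at 0.38 ± 0.12 (limma adjusted p = 0.0369), and neither was called without replicate number 1 or 3. Without number 2, 1 member was called in NRF2 and 2 in FGFR1, with 14.1% and 7.22% of all genes called. Without number 1 or 2, 5 were called in PIK3CA, with 19.7% and 20.2% of all genes called.

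The remaining calls in these lines were small. In NRF2, XRCC1 rose by 0.35 while CDK7 fell by 0.34 and RPA3 by 0.32 (limma adjusted p = 0.0324, 0.0109 and 0.0202). In FGFR1, ERCC3 fell by 0.24. In PIK3CA, CCNH, the cyclin of CDK7, rose by 0.26, and RPA3 fell by 0.30, CDK7 by 0.25, REV3L by 0.21, REV1 by 0.18 and RPA1 by 0.15 (limma adjusted p from 0.00280 for REV3L to 0.0478 for RPA1). XPC did not pass the test in any of the 4 lines, with medians from 59.0 CPM in NRG1 to 70.2 CPM in FGFR1 and 67.8 CPM in HcRed.

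The control lines also differed from each other. In “GFP vs. HcRed”, 20 of 36 members were called, 13 higher and 7 lower, where 45% of 14186 genes were called, 22.2% higher and 22.8% lower. ERCC4 was lower in GFP by 0.66 ± 0.12 (limma adjusted p = 4.13e-06) and ERCC3, a subunit of TFIIH, by 0.52 ± 0.08 (2.24e-07). ERCC1 was higher by 0.50 ± 0.11 (limma adjusted p = 8.02e-05), DDB2 by 0.46 ± 0.11 (0.000350) and LIG1 by 0.45 ± 0.07 (2.56e-07). RPA2 and RPA3 were higher in GFP by 0.41 and 0.33, as were XPA, XRCC1, CETN2, RAD23B, REV3L, POLH, POLK and DDB1 by 0.16 to 0.39, and CDK7, UVSSA, CCNH and GTF2H3 were lower by 0.26 to 0.36. MGMT was lower in GFP by 0.46 ± 0.19 (limma adjusted p = 0.0448, and 0.118 with the correction for GC content). XPC did not pass the test between the controls. Without the samples of replicate number 1, 13 members and 34.5% of all genes were called in this comparison.

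With the 3 DMSO samples per line alone, fewer members passed. The count was 15 of 35 tested (8 higher, 7 lower) for FAT1, where 26.3% of all genes were called (12% higher, 14.3% lower), and 15 of 36 (3 higher, 12 lower) for CDKN2A, where 37.2% were (18.9% higher, 18.3% lower). In DMSO, XPC was at 48.3, 60.3 and 70.9 CPM in GFP, 73.8, 78.5 and 86.6 CPM in the FAT1 knockout and 35.3, 36.3 and 40.1 CPM in the CDKN2A knockout. The 3 sets of XPC values did not overlap, and the log2 differences from GFP were 0.43 (limma adjusted p = 0.0324) and -0.66 (0.00183). The largest change of any member in DMSO was that of LIG3 in the CDKN2A knockout, at 1.02 (limma adjusted p = 2.52e-07). Without GFP replicate 3, 9 members and 21.0% of all genes were called for FAT1. For NRF2, 1 member was called (ERCC6, with 7.16% of all genes called), and for PIK3CA 2 (ERCC6 and GTF2H3, with 8.6%), neither of which DESeq2 called. None was called by limma, edgeR or DESeq2 for NRG1 (2.04% of all genes by limma), where 2 members had an unadjusted limma p below 0.05 (12.7% of all genes). None was called by limma, edgeR or DESeq2 for FGFR1 either (1.86% by limma), where 6 members had an unadjusted limma p below 0.05 (12.7% of all genes).

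Many members differed from DMSO by small amounts with each chemical, and the direction moved with the GC content of the gene. All 95 samples were fitted together with line as a term. Against DMSO, 24 of 36 members were called with CSC (7 higher, 17 lower), 19 with BaP (8 higher, 11 lower) and 24 with NNK (10 higher, 14 lower), where 54.5%, 51.4% and 51.5% of 14384 genes were called. Over all genes 28% were higher and 26.5% lower with CSC, 26.4% and 25% with BaP, and 26.2% and 25.3% with NNK. The median log2 difference of the members was -0.12, -0.01 and -0.08, against 0.00, 0.01 and 0.00 over all genes. By role, 6, 4 and 3 of the 6 translesion genes fell with CSC, BaP and NNK and none rose as counted, and 2, 2 and 3 of the 3 kinase genes fell. Over the 33 members with a mean of at least 10 counts, Spearman's rho between the GC content of the transcript and the log2 difference was 0.794 for CSC, 0.766 for BaP and 0.817 for NNK, as a description across genes that share libraries. Over 9637 genes with at least that mean count and a known GC content it was 0.771, 0.802 and 0.854. Of the 16 members above the median GC content of 43.3%, 8, 12 and 11 had a positive difference with CSC, BaP and NNK, and of the 17 at or below it 1, 2 and 0 did. In the comparisons of lines the same rho lay between -0.354 and 0.402.

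**Figure D3:**
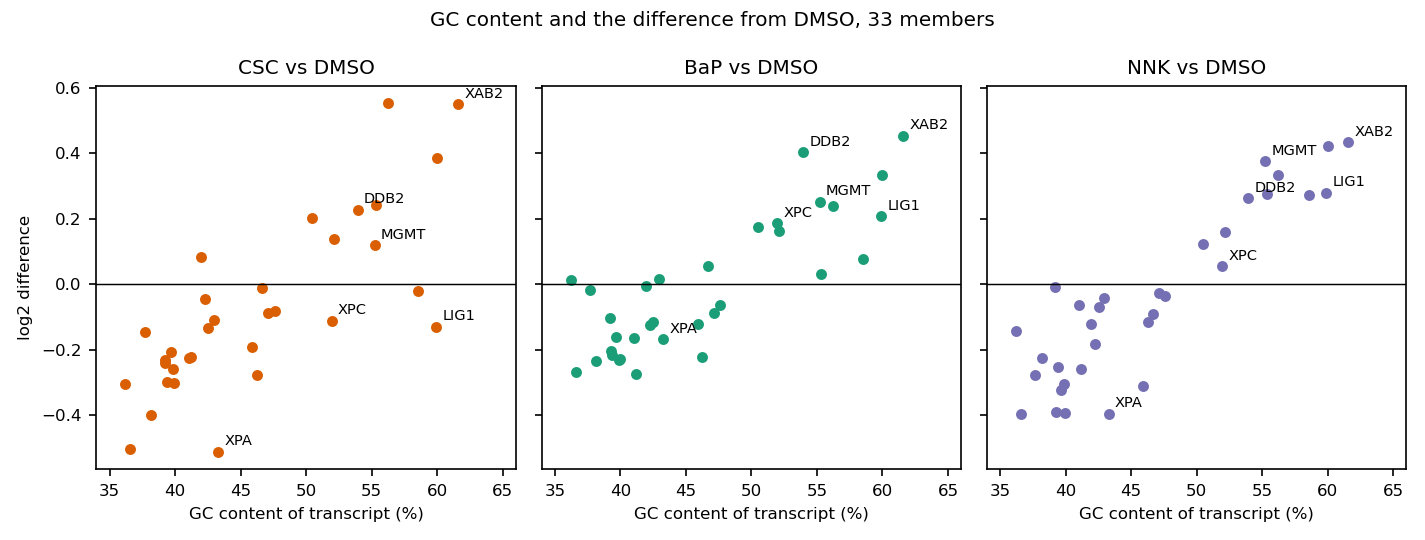
GC content of the transcript in percent (x axis) and log2 difference from DMSO over 8 lines (y axis) for the 33 members with a mean of at least 10 counts, 1 point per gene, for CSC, BaP and NNK. Points rise from left to right in each panel, with Spearman's rho of 0.794, 0.766 and 0.817.

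When each sample was first corrected for its own trend with GC content and transcript length, the number of members called fell to 11 with CSC (4 higher, 7 lower), 7 with BaP (4 higher, 3 lower) and 4 with NNK (2 higher, 2 lower), and 32.3%, 24.1% and 14.6% of all genes were called. Library depth moved with treatment as well, with a median of 1051100 counted reads in DMSO and 825590, 836090 and 753700 with CSC, BaP and NNK. With library size as a covariate 23, 16 and 20 members were called. The share of all genes called with that covariate is not given here, so these counts are no result about the members. Cycling genes had a summed median of 7156 CPM in DMSO and 5763, 5936 and 6089 CPM with the chemicals, and the 6 fibroblast markers, of which 4 had a mean count below 1, of 17.2 CPM against 34.3, 28.0 and 32.4 CPM. Their part in the differences was not tested. Other gene lists are given below as counted, while values of members against DMSO are therefore mostly given with and without the correction. After it, rho between GC content and the log2 difference over the 33 members was -0.0545, -0.350 and 0.115 with CSC, BaP and NNK. Corrected values with BaP thus still moved with GC content, in the other direction.

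**Figure D4:**
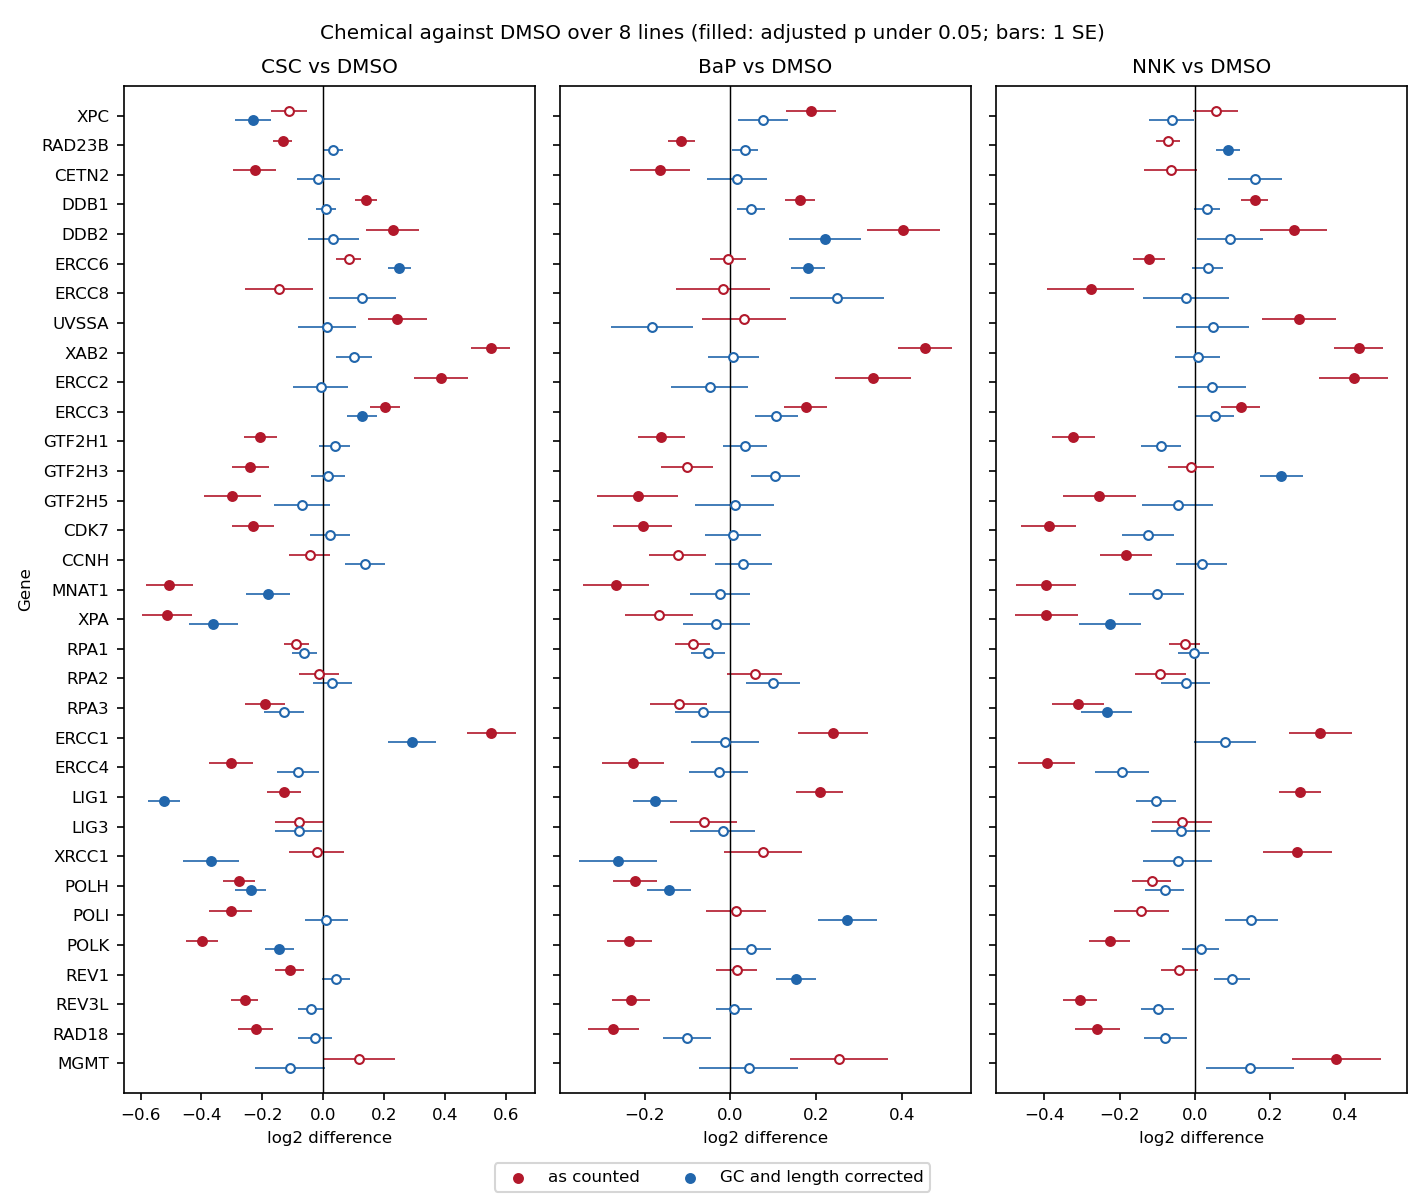
Log2 difference from DMSO (x axis) of the 33 members with a mean of at least 10 counts (y axis) for CSC, BaP and NNK over 8 lines, before (red) and after (blue) correction for GC content and transcript length. Bars are 1 standard error, and filled points have a limma adjusted p below 0.05. XAB2 moves from 0.55 to 0.10 with CSC, while POLH stays at -0.28 and -0.24.

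DDB2 was higher with BaP under either fit. Its lowest, median and highest levels were 17.5, 28.6 and 57.1 CPM in DMSO and 20.05, 39.7 and 72.7 CPM with BaP. The ranges over lines overlapped, and the level was higher in 8 of 8 lines. The log2 difference was 0.40 ± 0.09 (limma adjusted p = 2.92e-05) and, with the correction, 0.22 ± 0.08 (0.0407). With CSC and NNK it was 0.23 and 0.26 (limma adjusted p = 0.0195 and 0.00935), and 0.03 and 0.09 with the correction, no longer past the threshold.

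XPC differed between CSC and BaP. It was at 35.3, 63.8 and 86.6 CPM in DMSO, 28.1, 60.1 and 87.9 CPM with CSC, 41.8, 72.7 and 99.6 CPM with BaP and 32.6, 67.2 and 107 CPM with NNK. It was higher with BaP in 8 of 8 lines and lower with CSC in 7 of 8. The difference “CSC vs. BaP” was -0.30 ± 0.06 (limma adjusted p = 4.48e-05) and stayed at -0.31 ± 0.06 (1.87e-05) with the correction. Against DMSO, XPC passed the test with BaP alone as counted (0.19 ± 0.06, limma adjusted p = 0.00439) and with CSC alone when corrected (-0.23 ± 0.06, 0.000894).

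MGMT was at 6.70, 12.6 and 29.0 CPM in DMSO and 7.59, 17.1 and 29.7 CPM with NNK, the nitrosamine whose products include alkylated guanine. The ranges were nearly the same, and the level was higher in 5 of 8 lines. The log2 difference of 0.38 ± 0.12 (limma adjusted p = 0.00464) became 0.15 with the correction and did not pass. With CSC and BaP the differences were 0.12 and 0.25 and did not pass.

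**Figure D5:**
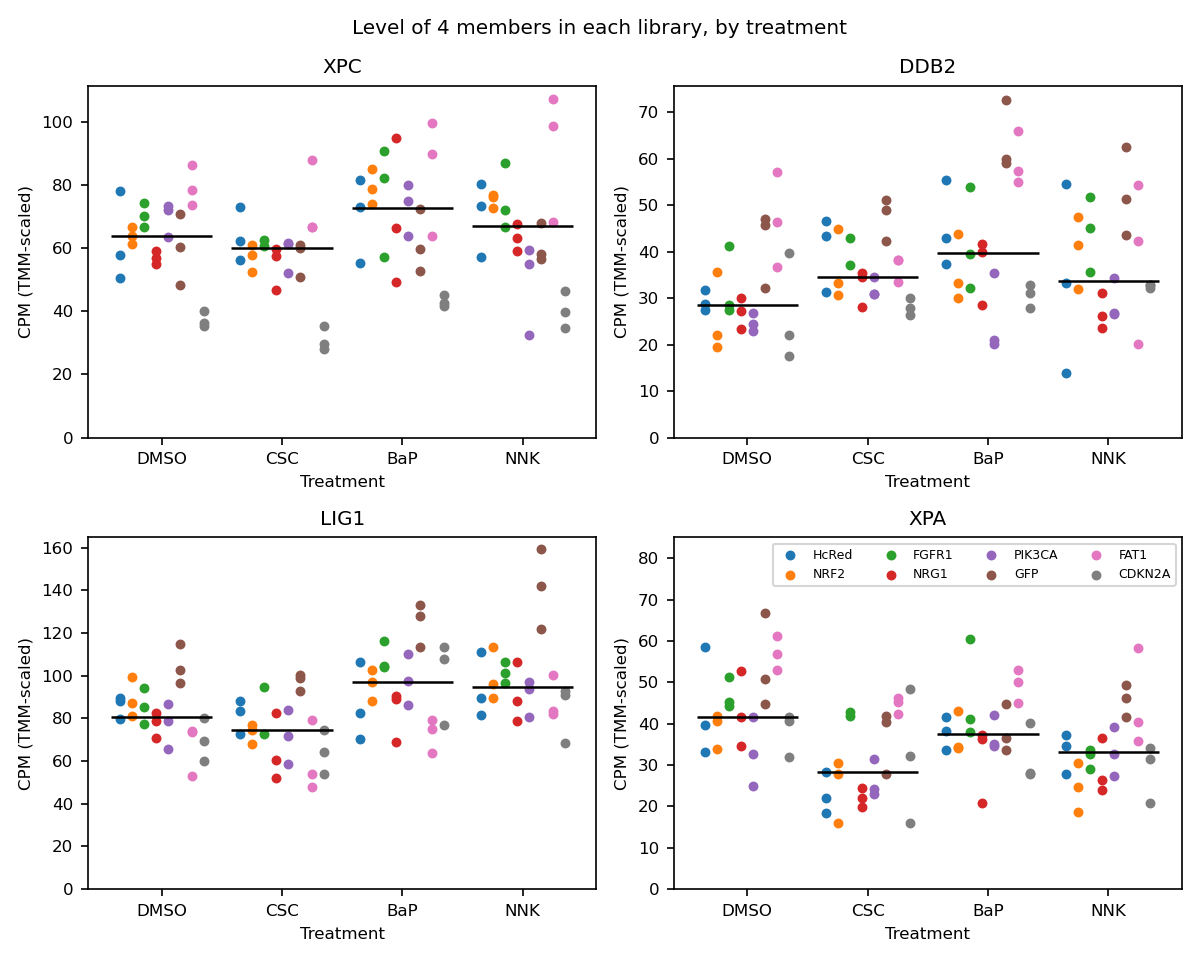
Level of XPC, DDB2, LIG1 and XPA in each of the 95 libraries, in TMM-scaled CPM (y axis, from 0), by treatment (x axis), coloured by line, with a black bar for the median of the treatment. The median of XPA is 41.7 CPM in DMSO and 28.2 CPM with CSC, and that of LIG1 is 80.7 CPM in DMSO, 74.6 with CSC and 97.2 with BaP.

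With CSC, several members fell under both fits. XPA, the scaffold that verifies the lesion, was at 24.9, 41.7 and 66.8 CPM in DMSO and 15.9, 28.2 and 48.5 CPM with CSC, lower in 8 of 8 lines with overlapping ranges. The log2 difference was -0.51 ± 0.08 (limma adjusted p = 3.66e-08), and -0.36 ± 0.08 (0.000112) with the correction. POLH fell by 0.28 (limma adjusted p = 1.44e-06) and by 0.24 with the correction (6.94e-05). POLK, a polymerase able to cross benzo(a)pyrene adducts, fell by 0.40 (limma adjusted p = 1.09e-10) and by 0.14 when corrected (0.0138). LIG1 fell by 0.13 (limma adjusted p = 0.0432) and by 0.52 when corrected (6.41e-16), and MNAT1 by 0.50 and 0.18 (8.47e-09 and 0.0425). ERCC1 and ERCC3 rose by 0.55 and 0.20 (limma adjusted p = 2.10e-09 and 0.000269) and by 0.29 and 0.13 with the correction (0.00179 and 0.0336).

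Some members were called with CSC after the correction alone. ERCC6 was higher by 0.25 (limma adjusted p = 2.64e-08) and XRCC1 lower by 0.37 (0.000617), at 0.08 and -0.02 as counted. XPC (above) and ERCC5, whose counts are uncertain, were the others. The 6 translesion genes, all lower as counted, kept POLH and POLK as calls. REV1, REV3L, RAD18 and POLI had corrected differences of 0.04, -0.04, -0.03 and 0.01 that did not pass.

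Fewer members moved in the same direction under both fits with the other chemicals. With BaP these were DDB2 and POLH, the latter at -0.22 (limma adjusted p = 0.000107) and -0.14 when corrected (0.0294). LIG1 passed with BaP under both fits in opposite directions, at 0.21 as counted (limma adjusted p = 0.000732) and -0.18 when corrected (0.00699). The translesion genes POLI and REV1 were called higher with BaP after the correction alone, at 0.27 and 0.15 (limma adjusted p = 0.00111 and 0.00777), as was ERCC6 at 0.18 (0.000103), and XRCC1 was called lower at -0.26 (0.0237). Over the 33 members the corrected differences with BaP fell with GC content (Spearman's rho -0.350). POLI, REV1 and ERCC6 have 36.2%, 42.95% and 41.96%, and XRCC1 and LIG1 have 58.5% and 59.9%. DDB2, which was also higher, has 53.9%. With NNK the members that moved alike under both fits were XPA, at -0.39 and -0.23 (limma adjusted p = 2.80e-05 and 0.0456), and RPA3, the small RPA subunit, at -0.31 and -0.23 (6.45e-05 and 0.00907). GTF2H3 and RAD23B were called higher with NNK after the correction alone, at 0.23 and 0.09 (limma adjusted p = 0.00179 and 0.0396). The largest rise as counted was that of XAB2, a partner of XPA, at 0.55, 0.45 and 0.44 with CSC, BaP and NNK. It had the highest GC content of the members, 61.6%, and its corrected differences of 0.10, 0.01 and 0.01 did not pass.

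The calls between CSC and the other chemicals changed less with the correction than those against DMSO. In “CSC vs. BaP”, 8 of 36 members were called (17.1% of all genes) and 6 with the correction. In “CSC vs. NNK”, 8 were called (23.3%) and 8 with the correction. In “BaP vs. NNK”, 2 were called (11.5%) and 2 with the correction. GTF2H2, with uncertain counts, was called there under both fits, and ERCC6 after the correction alone. Spearman's rho with GC content in “BaP vs. NNK” was -0.479, and -0.437 with the correction. The share of all genes called with the correction is not given here for these comparisons. The corrected counts are therefore no result about the members. LIG1 was at 47.7, 74.6 and 100 CPM with CSC, 63.8, 97.2 and 133 CPM with BaP and 68.3, 94.9 and 159 CPM with NNK. The differences of LIG1 were -0.34 ± 0.06 for “CSC vs. BaP” (limma adjusted p = 7.33e-07) and -0.41 ± 0.06 for “CSC vs. NNK” (1.85e-09), and -0.35 and -0.42 with the correction. XPA was also lower with CSC than with BaP, by 0.34 ± 0.08 (limma adjusted p = 0.000992), as was POLI, by 0.32 ± 0.07 (0.000451), and ERCC1 was higher by 0.31 ± 0.08 (0.00195). Against NNK, ERCC6 was 0.21 ± 0.04 higher with CSC (limma adjusted p = 7.20e-05). Without the samples of replicate number 1, 3 members were called in “CSC vs. BaP” and 4 in “CSC vs. NNK”, with 9.52% and 14.8% of all genes. The chemicals were given at different concentrations, so these are comparisons of the treatments as applied.

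No member was called in the test of whether its response to a chemical differed among the 8 lines, by limma or edgeR. For CSC, BaP and NNK, 5, 2 and 2 members had an unadjusted limma p below 0.05, as did 9.68%, 7.86% and 6.39% of all genes. The share of all genes called was 0.779%, 0.327% and 0.0695%. The smallest adjusted p of a member was that of GTF2H3 with CSC (limma adjusted p = 0.202).

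Related genes outside the list were counted in the same fits. In “CDKN2A vs. GFP”, 5 of 18 other excision and gap-filling genes rose and 8 fell, the largest changes being those of the clamp loader subunit RFC3 (-0.86) and of RBX1 (0.45). Of 12 other translesion and tolerance genes 5 rose and 3 fell, POLQ (-0.62) and HLTF (0.50) being the largest. Of 20 base excision and alkyl reversal genes 6 rose and 4 fell, and of 8 mismatch repair genes 1 rose and 3 fell. In “FAT1 vs. GFP” the counts were 2 up and 8 down, 0 up and 4 down, 4 up and 2 down, and 1 up and 1 down. With the chemicals, 5 of 5 AhR target genes tested rose against DMSO, CYP1A1 by 5.66, 5.63 and 3.06 on the log2 scale with CSC, BaP and NNK. Of the 15 p53 response genes, 7 rose with each chemical and 5, 3 and 2 fell with CSC, BaP and NNK. Over all genes 26.2% to 28% were called higher and 25% to 26.5% lower. The largest rise on this list was that of PLK3 with CSC and of CDKN1A with BaP (0.97) and NNK (0.68). These list values are as counted. Those with the correction for GC content and length are not given here, so the counts show no p53 response apart from the GC trend.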

How the data were processed

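The authors trimmed SFL reads with cutadapt 1.12, aligned them to hg19 with STAR 2.5.2b and counted them in RefSeq genes with featureCounts (versions from the submitters' processing notes). The deposited values are raw counts, and CPM here are counts scaled by TMM factors (edgeR 4.0.16, R 4.3.3). Genes whose mean count over the samples of a fit exceeded 1 were tested with limma 3.58.1 on voom-transformed counts, 2-sided. GC content and length come from GENCODE models on GRCh37 and were known for 92.1% of the 14384 genes fitted. The correction subtracts a loess trend (span 0.3) per sample. XPC, DDB2, MGMT and the called members with the largest differences (minimum mean count 10) are named, and genes of other lists are named where they are the largest change of their list or bear on a member. The members and lists were chosen with earlier results of these data known. The alternatives tried were DESeq2 1.42.0, the quasi-likelihood test of edgeR, other filters and scaling, a replicate block, and leaving out samples. Scripts were tested on simulated data. The floor of 3 counts covers counting error only, and standard errors cover the spread between samples.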

Additional observations from a re-analysis of the deposited data

Results flagged for a closer look

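XPC, RAD23B, RPA1 and POLI were called higher in the FAT1 knockout and lower in the CDKN2A knockout against the same GFP libraries, and the knockout lines differed when compared directly. The log2 difference “FAT1 vs. CDKN2A” was 1.13 for XPC, 0.519 for RAD23B, 0.754 for RPA1 and 1.30 for POLI, each with a limma adjusted p below 0.05 and higher in 4 of 4 treatments. With the GC and length correction the 4 values were 1.14, 0.54, 0.79 and 1.26.

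LIG1 was called lower with CSC and higher with BaP and NNK against the same DMSO libraries, and the log2 differences between the chemicals were -0.337 for “CSC vs. BaP” and -0.409 for “CSC vs. NNK”. With the correction, LIG1 was at -0.52, -0.18 and -0.10 against DMSO with CSC, BaP and NNK, with BaP past the threshold (limma adjusted p = 0.00699), so the opposite directions were not kept, while the differences between chemicals were -0.35 and -0.42.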

How the results depend on the processing

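Of 64 named differences between lines over all treatments, 62 kept their direction and call with the correction, 63 with edgeR, 59 with DESeq2 and 64 with DESeq2 size factors. Of 24 in DMSO alone, 22 did so with the correction, 24 with edgeR and 14 with DESeq2. Of 49 named differences between treatments, 23 did so with the correction and 6 reversed: ERCC2 with CSC (-0.0084) and BaP (-0.048), POLI with CSC (0.0101), and ERCC1 (-0.0125), POLK (0.048) and REV3L (0.0082) with BaP, none of them past the threshold when corrected. LIG1 with BaP, outside these 49, reversed past the threshold (0.21 as counted, -0.18 corrected).

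By comparison, the number of members called moved by over 1.5 times as follows. With the correction it was 11, 7 and 4 for CSC, BaP and NNK against DMSO, 4 for NRG1 (2 as reported) and 2 for FGFR1 in DMSO (0). The share of all genes called was then 32.3%, 24.1%, 14.6%, 13.8% and 2.49%. With DESeq2 it was 1 for “BaP vs. NNK” (2), 1 for NRG1 (2), 7 for FAT1 in DMSO (15) and 0 for PIK3CA in DMSO (2). The share of all genes called by DESeq2 was 10.5%, 8.94%, 13.9% and 3.22%. For “BaP vs. NNK” it was also 1 with edgeR, with no filter and with library size as a covariate, and 4 with a minimum mean count of 10. The share of all genes called was 10.5%, 6.04%, 10.1% and 16.3% with these settings. With no filter it was 1 for NRG1 and 1 for FGFR1 in DMSO, with 6.09% and 1.7% of all genes. In 166 pairs of samples with the same number, the correlation of deviations from the group means lay between -0.113 and 0.175 (mean 0.019). The labels do not say what the numbers stand for, and low correlations cannot exclude a pairing, so this is not settled. With the replicate number as a block, 2 members were called for FGFR1 in DMSO (0 without the block), with 2.62% of all genes called. No other count moved by over 1.5 times with the block.

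Leaving out a line or the samples of a replicate number gave 3 to 9 members for “CSC vs. BaP” (lowest without number 1, 5 without number 2, HcRed or GFP), 0 to 4 for “BaP vs. NNK” (0 without number 2 or without FGFR1, 4 without PIK3CA) and 3 to 8 for “CSC vs. NNK” (lowest without number 2, 4 without number 1, 5 without CDKN2A or PIK3CA). It gave 1 to 4 for NRF2, 2 to 3 for FGFR1, 0 to 3 for NRG1 and 5 to 9 for PIK3CA over all treatments, lowest without number 2 (PIK3CA also without number 1) except for NRG1 (numbers 1 and 3), and 13 to 15 for “GFP vs. HcRed”. In DMSO the ranges were 9 to 13 for FAT1 (9 without GFP replicate 3), 1 to 2 for NRF2 (2 without NRF2 replicate 3), 0 to 1 for FGFR1 (1 without FGFR1 or HcRed replicate 2) and 1 to 2 for PIK3CA (1 without HcRed replicate 3 or PIK3CA replicate 1 or 2). The share of all genes called for “CSC vs. BaP” was 9.52% without number 1 and 9.03% without number 2. It was 11.5% without HcRed and 14.2% without GFP. For “CSC vs. NNK” it was 14.4% without number 2, 14.8% without number 1, 19.8% without CDKN2A and 20.7% without PIK3CA. For “BaP vs. NNK” it was 5.94% without number 2, 9.92% without FGFR1 and 10.9% without PIK3CA. For lines it was 14.1% in NRF2 and 7.22% in FGFR1 without number 2, and 5.13% in NRG1 without number 1. It was 7.7% in NRG1 without number 3, and 19.7% and 20.2% in PIK3CA without number 1 and 2. For “GFP vs. HcRed” it was 34.5% without number 1. In DMSO it was 21.0% for FAT1 without GFP replicate 3 and 5.99% for NRF2 without NRF2 replicate 3. For FGFR1 in DMSO it was 1.4% and 1.92% without FGFR1 or HcRed replicate 2. For PIK3CA in DMSO it was 6.58% without HcRed replicate 3, and 6.96% and 6.18% without PIK3CA replicate 1 and 2. The shares beside the other counts of these ranges are not given here, so those counts are no result about the members. Depth limits the precision of MGMT, at a mean of 13.99 counts, more than that of the other 32 members above 10.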
